A study of Mus musculus with 24 samples.

Results

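The genes described here encode or control MHC class II, the surface molecules that show peptides to helper T cells. Their levels were read in sorted bone marrow cells of mice labelled wild type (WT) or knockout (KO) for BAP1, an enzyme that removes ubiquitin from histone H2A. The list named 7 genes, which were matched to the array's gene symbols without regard to case, with each gene represented by its brightest probe. Of these, 3 genes were found among the 17741 named on the arrays: Cd74 and Ciita by symbol, and H2-Aa through a RefSeq synonym, since the array writes it H2AA. A further probe carried the symbol H2AB1, which without its hyphen could stand for the class II gene H2-Ab1 or for either of 2 histone genes. It is described as "the probe annotated H2AB1" and is counted in no number on class II genes. H2-Ab1 under its own name, H2-Eb1, H2-DMa and H2-DMb1 were not analysed here.

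RNA was hybridised to 24 one-colour arrays, with 3 arrays for each of 8 C57BL/6 mice. The groups, of 2 mice each, were WT LSK cells (mice 1 and 3), KO LSK cells (mice 2 and 4), WT myeloid progenitors (mice 5 and 6) and KO myeloid progenitors (mice 7 and 8). LSK cells lack lineage markers, carry ScaI and Kit, and are enriched for hematopoietic stem cells, whereas the myeloid progenitors lack lineage markers and ScaI and carry Kit. No mouse gave both populations. The mice were injected with tamoxifen, which induced loss of BAP1 throughout the body and not in the blood lineage alone. The sources used here do not name the Cre driver, the allele, the age of the mice or whether WT mice carried Cre. The arrays read sorted pools of cells, so that fewer cells of a type and less RNA per cell cannot be told apart.

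Class II molecules are made by B cells, dendritic cells and macrophages, and at lower levels by some stem and progenitor cells. An alpha and a beta chain are assembled on the invariant chain, Cd74, which blocks the peptide groove until proteases such as cathepsin S digest it in endosomes, where H2-DM then helps to load a peptide. H2-Aa is the alpha chain and H2-Ab1 the beta chain of I-A, the class II molecule that C57BL/6 mice display. Transcription depends on the coactivator Ciita, which binds no DNA itself but sits on a complex of RFX, CREB and NF-Y proteins held at the X, X2 and Y boxes of class II promoters.

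These boxes are shown because Ciita acts through them at class II promoters. RefSeq promoter windows (GRCm38.p6), from 250 bases before to 50 bases after each start, held 4 of the 7 listed genes in 5 windows. They were searched on both strands for GNAAC, the conserved letters of the X box, followed 10 to 40 bases later by TGATTGG, a Y box with its reversed CCAAT. The stretches found, in capitals at GNAAC and TGATTGG and written 5′ to 3′ on the strand of the gene, were these:
H2-Aa: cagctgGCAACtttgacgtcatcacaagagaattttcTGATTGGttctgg
H2-Eb1: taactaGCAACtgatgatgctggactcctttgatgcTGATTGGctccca
H2-DMb1: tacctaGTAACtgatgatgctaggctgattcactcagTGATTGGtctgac

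They lie at chr17:34287861-34287910 on the minus strand for H2-Aa, chr17:34305770-34305818 on the plus strand for H2-Eb1 and chr17:34153091-34153140 on the plus strand for H2-DMb1. The letters between the boxes numbered 26 in H2-Aa and H2-DMb1 and 25 in H2-Eb1, and GNAAC began 81, 94 and 91 bases before the start in that order. Only the H2-Aa stretch among these held TGACGTCA, the full palindrome that CREB proteins bind, at the place of the X2 box. Of all 32851 windows in the table, 0.828% held the pair of motifs in this order and spacing, against 7.82% with TGATTGG and 84.8% with GNAAC. Neither window of H2-DMa held the pair. Cd74, Ciita and H2-Ab1 had no window, so their promoters were not searched. Of the listed genes with a window, only H2-Aa was read on the arrays. A match describes letters only, and the arrays did not measure binding.

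Values are log2 intensities, which ran from 5.66 to 15.93 over all probes and arrays, with a 25th percentile of 6.15 to 6.18 in every array. The probe of H2-Aa was among the bright ones, with a mean of 12.75, above 96.6% of probes. The brightest of 3 Cd74 probes had a mean of 8.39, above 64.2% of probes, and the only probe of Ciita a mean of 6.66, above 38.7%. Probes differ in their yield, so these means do not rank the genes against each other. None of the 3 genes had a group mean under 6.5, a level close to the low end of the arrays that was chosen after values were seen. Ciita at 6.51 in WT myeloid progenitors was barely above it, and lay under it in mouse 4 (6.38) and mouse 6 (6.36). The level therefore does not test whether Ciita was detected.

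H2-Aa read 13.87 and 14.25 in the WT LSK mice and 13.07 and 11.32 in the KO LSK mice. It read 12.48 and 11.81 in the WT myeloid progenitors and 12.81 and 12.36 in the KO myeloid progenitors. WT LSK cells therefore stood highest, and the lowest mouse of all, mouse 4, was a KO LSK mouse. From the highest group mean to the lowest, the order was WT LSK at 14.06 ± 0.27 (SD, n = 2 mice), KO myeloid progenitors at 12.58 ± 0.32, KO LSK at 12.20 ± 1.24 and WT myeloid progenitors at 12.15 ± 0.47. The mice of the last 3 groups overlapped, while both WT LSK mice lay above every other mouse.

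Cd74 read 8.87 and 8.84 in the WT LSK mice, and 8.83 and 7.16 in the KO LSK mice. Myeloid progenitors gave 8.85 and 7.73 in WT mice and 8.89 and 7.98 in KO mice. Outside WT LSK cells, each group thus held 1 mouse near 8.85 and 1 mouse well below it. The group means were 8.86 in WT LSK, 8.43 in KO myeloid progenitors, 8.29 in WT myeloid progenitors and 8.00 in KO LSK cells, and no neighbours in this order differed beyond their spread. The other probes of Cd74 had means of 6.34 and 6.29, near the low end of the arrays.

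Ciita, the master regulator, read 6.91 and 6.87 in the WT LSK mice and 6.70 and 6.38 in the KO LSK mice. It read 6.65 and 6.36 in WT and 6.79 and 6.64 in KO myeloid progenitors. Its group means ran in the same order as those of H2-Aa, from 6.89 in WT LSK and 6.71 in KO myeloid progenitors to 6.54 in KO LSK and 6.51 in WT myeloid progenitors. The whole span of 8 mice was small and near the low end of the arrays, and both WT LSK mice lay above the other 6. The share of all genes with this pattern, also seen for H2-Aa, is not given here, so it is not read as particular to these genes. All differences of Ciita below were likewise read near the low end.

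**Figure D1:**
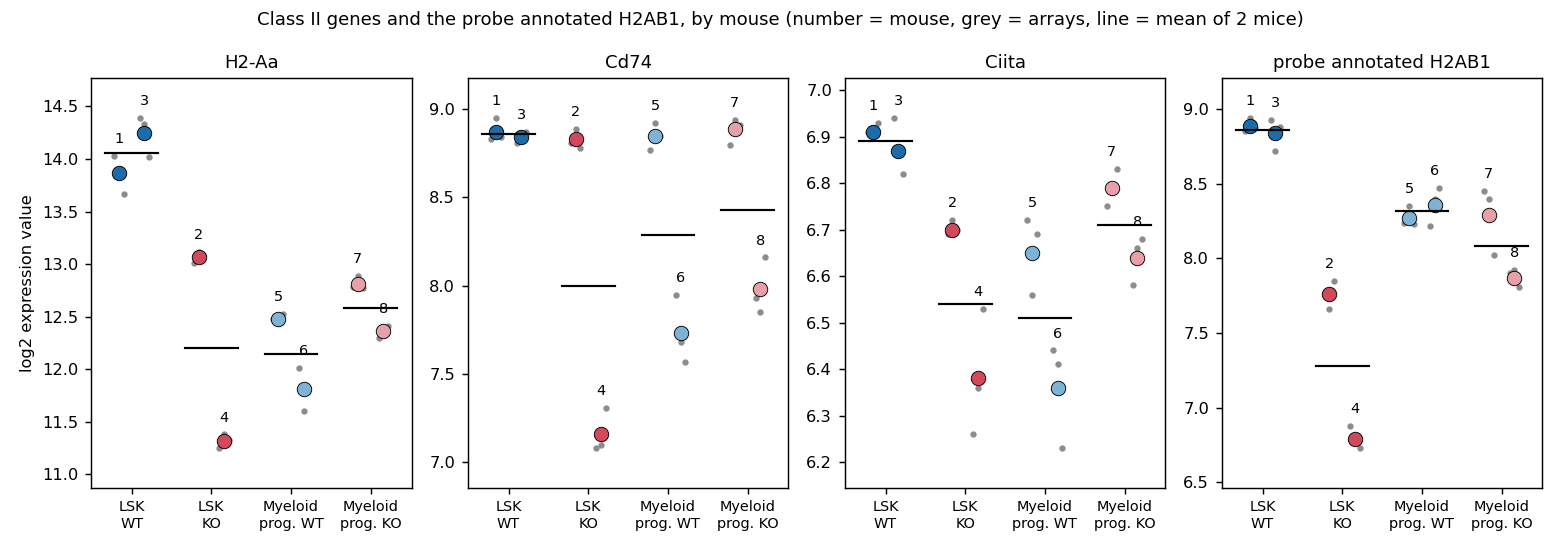
Log2 intensity (vertical axis, whose range differs between panels) of H2-Aa, Cd74, Ciita and the probe annotated H2AB1 in each of 8 mice, by group (horizontal axis). Small points are arrays, large points mouse means and bars group means; both WT LSK mice stand above all other mice for H2-Aa, at 13.87 and 14.25.

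The comparison of KO with WT LSK cells asks how loss of BAP1 changes the stem cell enriched fraction. All 3 genes were lower in both KO mice than in both WT mice, but none passed the test, a limma p-value under 0.05 after Benjamini-Hochberg adjustment across 22439 probes. Over all 17741 genes 4.64% passed, and 20.9% had both KO mice below both WT mice, so that separate groups are common with 2 mice each. The H2-Aa difference was -1.86 ± 0.59 on the log2 scale (SE, 3.63-fold, 95% interval -3.33 to -0.39, limma adjusted p = 0.198). The fit shares 1 spread per probe between all 4 groups, while H2-Aa had an SD of 1.24 in KO LSK and 0.27 in WT LSK mice. In every comparison its SE, interval and p therefore rest on a pooled spread and understate that of the KO LSK mice. Ciita differed by -0.35 ± 0.14 (limma adjusted p = 0.249) and Cd74 by -0.86 ± 0.66 (limma adjusted p = 0.635). For Cd74 the groups were barely apart, at 8.83 in KO mouse 2 and 8.84 in WT mouse 3. The arrays of these mice overlapped, at 8.78 to 8.89 and 8.81 to 8.87. At an unadjusted p under 0.05, 2 of the 3 genes counted, H2-Aa and Ciita, against 16.6% of all genes. The median difference of the 3 genes was -0.86, against 0.02 over all genes.

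Mouse 4 set much of the size of these differences. Without it, H2-Aa differed by -0.98 (limma adjusted p = 0.124) and Cd74 by -0.03. Without mouse 2, the other KO LSK mouse, H2-Aa differed by -2.74 (limma adjusted p = 0.00283). Each of these fits leaves a lone KO LSK mouse that is assumed to vary like the other groups and drops the spread of 1.24 between the KO LSK mice, so its p does not measure that spread. A fit of single arrays in place of mouse means, with mice as a random block, which assumes 1 correlation between arrays of a mouse for all probes, called H2-Aa (limma adjusted p = 0.000159) and Ciita (limma adjusted p = 0.0334), and it called 15.1% of all genes.

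In myeloid progenitors the same comparison gave differences of the opposite sign. KO minus WT was 0.44 ± 0.59 for H2-Aa (95% interval -1.03 to 1.90, limma adjusted p = 0.925), 0.14 ± 0.66 for Cd74 (adjusted p = 0.991) and 0.21 ± 0.14 for Ciita (adjusted p = 0.74). The WT and KO mice overlapped for all 3 genes, while 41% of all genes kept the groups apart in either direction. None passed, where 2.64% of all genes did, and none reached an unadjusted p under 0.05, where 11.4% did. The sign for Cd74 turned without mouse 6 (-0.42) or without mouse 7 (-0.31).

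Whether the genotype difference itself differed between the populations was tested as an interaction. It was -2.30 ± 0.84 for H2-Aa (95% interval -4.37 to -0.22, limma adjusted p = 0.763), -0.56 ± 0.20 for Ciita (limma adjusted p = 0.653) and -1.0 ± 0.94 for Cd74 (limma adjusted p = 0.92). No class II gene passed, and 0.062% of all genes did. Unadjusted, 2 of the 3 lay under 0.05, against 6.35% of all genes. Averaged over the populations, KO minus WT was -0.71 ± 0.42 for H2-Aa, -0.36 ± 0.47 for Cd74 and -0.07 ± 0.10 for Ciita, with 0 of 3 passing where 7.95% of all genes did. None of these averages had an unadjusted p under 0.05, where 19.5% of all genes did.

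**Figure D2:**
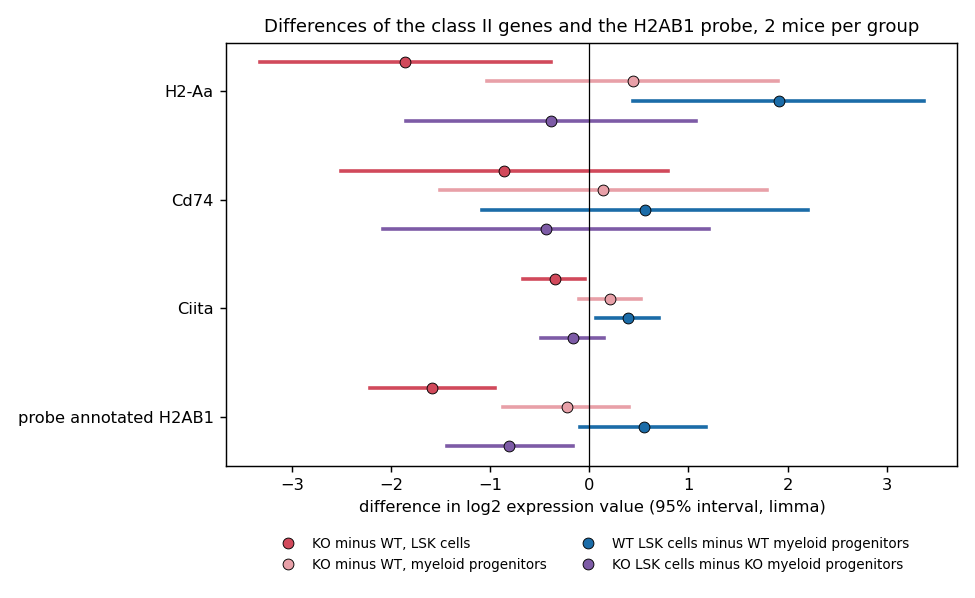
Log2 differences (horizontal axis) of H2-Aa, Cd74, Ciita and the probe annotated H2AB1 between groups of 2 mice, as points with 95% limma intervals. KO minus WT in LSK cells is -1.86 for H2-Aa, with an interval of -3.33 to -0.39, and 0.44 in myeloid progenitors, with an interval that spans 0. Intervals use 1 spread per probe for all groups, while H2-Aa had an SD of 1.24 in KO LSK and 0.27 in WT LSK mice.

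Set against each other, the WT populations differed most in H2-Aa, which stood 1.91 ± 0.59 higher in LSK cells than in myeloid progenitors (3.75-fold, 95% interval 0.44 to 3.38, limma adjusted p = 0.104). Ciita stood 0.39 ± 0.14 higher (limma adjusted p = 0.108) and Cd74 0.56 ± 0.66 higher (limma adjusted p = 0.665). H2-Aa and Ciita separated the WT populations without overlap, as 24.8% of all genes did in this direction. None of the 3 passed, while 13.5% of all genes did, and 2 had an unadjusted p under 0.05, where 27.3% did. These values also depended on the fit: with the random block H2-Aa and Ciita passed, as did 26.4% of all genes, and H2-Aa passed in a fit of the WT groups alone (limma adjusted p = 0.000852), without mouse 2 (0.00178) and without mouse 4 (0.00188). The last 3 fits leave out the spread between the KO LSK mice, which are no part of this comparison. The main fit pools that spread (SD 1.24 for H2-Aa) with those of the WT groups, which were 0.27 in LSK cells and 0.47 in myeloid progenitors. Whether H2-Aa passes here thus depends on the spread assumed. Between the KO populations all 3 differences had the opposite sign, with -0.39 for H2-Aa, -0.44 for Cd74 and -0.17 for Ciita, and the mice overlapped for each, where 55.6% of all genes kept the groups apart. None passed there either, where 12.8% of all genes did, and none had an unadjusted p under 0.05, where 26.2% did. The comparisons of WT populations and of genotypes share mice, so their signs are not independent of each other.

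The probe annotated H2AB1 was the only class II candidate with a call. It read 8.89 and 8.84 in the WT LSK mice and 7.76 and 6.79 in the KO LSK mice. Myeloid progenitors gave 8.27 and 8.36 in WT mice and 8.29 and 7.87 in KO mice. The KO LSK mice thus lay below all 6 other mice, a pattern whose share over all genes is not given here. In LSK cells it fell by 1.59 ± 0.29 (3.01-fold, limma adjusted p = 0.0125), while in myeloid progenitors KO minus WT was -0.23 ± 0.29 (limma adjusted p = 0.909). The difference between these values was -1.35 ± 0.41 (limma adjusted p = 0.449). Averaged over the populations, KO minus WT was -0.91 ± 0.20 (limma adjusted p = 0.021). That average call was lost without limma's trend and robust options (adjusted p = 0.0819) and with a Kdm5d covariate (0.102). It was also lost without mice 1 and 5 together and without any 1 of mice 1, 3, 5, 6 and 8. The LSK call was lost without mouse 1 (adjusted p = 0.0693), without mice 1 and 5 together (0.161) and with a fit that left out limma's trend and robust options (0.0702).

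Mice of the same group differed more in H2-Aa than in most genes in all groups, and more in Cd74 than in most genes outside WT LSK cells. Mouse 4 read 1.76 lower than mouse 2 in H2-Aa and 1.67 lower in Cd74, and 0.203% and 0.231% of all genes differed more between these KO LSK mice. Between the WT myeloid progenitor mice, mouse 6 lay below mouse 5 by 0.67 in H2-Aa and 1.11 in Cd74, and 4.89% and 0.648% of genes differed more. Between the KO myeloid progenitor mice, mouse 8 lay below mouse 7 by 0.46 and 0.91, and 5.92% and 0.688% of genes differed more. In each of these 3 groups the mouse that was lower in H2-Aa was also lower in Cd74 and Ciita, although Ciita differed by 0.32 at most. The WT LSK mice had Cd74 and Ciita within 0.04 of each other and H2-Aa higher by 0.38 in mouse 3, with 13.1% of genes differing more. The median gene differed by 0.11 to 0.15 between mice of a group. Repeat arrays of 1 mouse had a standard deviation of at most 0.21 for each of the 3 genes, so the differences between mice in H2-Aa and Cd74 outside WT LSK cells exceeded those between arrays. The probe annotated H2AB1 followed the same order in KO LSK (-0.97) and KO myeloid progenitors (-0.42) but not in WT myeloid progenitors (0.09).

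**Figure D3:**
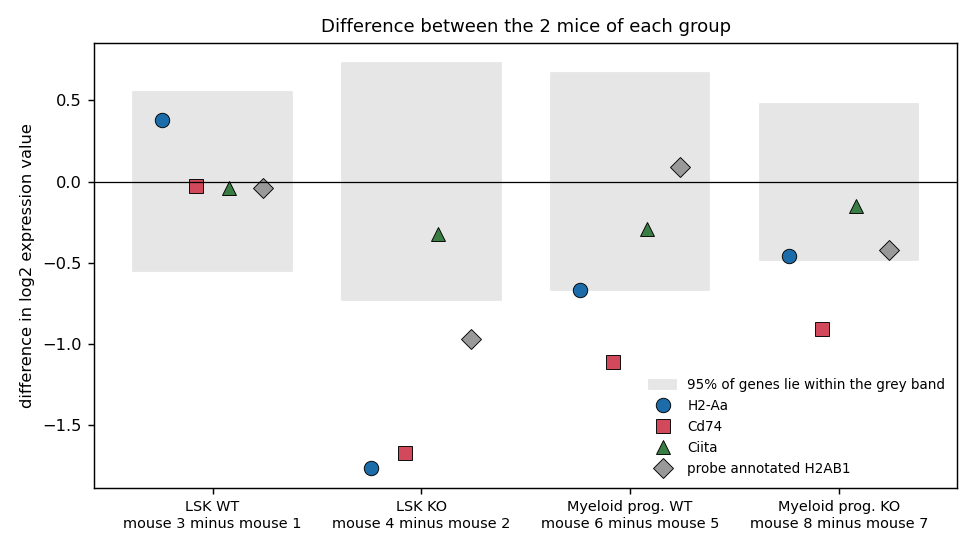
Log2 difference between the 2 mice of each group (vertical axis) for H2-Aa, Cd74, Ciita and the probe annotated H2AB1, with the spread over all genes shown for scale. In KO LSK cells mouse 4 lies 1.76 below mouse 2 in H2-Aa and 1.67 below it in Cd74, beyond the 95th percentile of all genes at 0.73.

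The genes whose pattern over the 8 mice was most like the class II genes were named by Pearson's r among 9555 genes brighter than the median probe. For the mean of the 3 class II genes, each centred and scaled, these were the caspase-8 regulator Cflar (r = 0.94), the phospholipase B domain gene Plbd1 (0.93), the lysosomal amidase Naaa (0.92), the signal peptide peptidase H13 (0.89) and the transcription factor Runx3 (0.88). Plbd1, for example, read 9.56 and 9.80 in WT LSK, 9.58 and 8.95 in KO LSK, 9.30 and 8.81 in WT and 9.34 and 9.16 in KO myeloid progenitors. For H2-Aa alone they were Plbd1 (0.94), Mmgt2 (0.93), Cflar (0.90), Senp8 (0.90) and Hs3st1 (0.89). These values are a description with no test, over 8 mice that share arrays, normalization and groups with the class II values. The probe annotated H2AB1 had an r of 0.75 with the class II mean, rank 42 of the 9555.

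Among other genes of class II processing and co-stimulation, 7 of 14 listed were measured. In LSK cells 1 of the 7 fell and none rose, beside 2.9% and 1.74% of all genes. It was Cd86, the ligand through which antigen-presenting cells signal to CD28 on T cells. Cd86 read 10.20 and 10.09 in WT and 8.31 and 7.83 in KO LSK mice, a fall by 2.08 ± 0.21 (4.22-fold, limma adjusted p = 0.000535). Myeloid progenitors gave 7.73 and 7.68 in WT and 7.42 and 7.26 in KO mice, and the difference of -0.36 did not pass (limma adjusted p = 0.637). The difference between these genotype differences was -1.72 (limma adjusted p = 0.0889). WT LSK cells thus stood far above the other groups, and the LSK call held under all 19 alternatives, at -2.32 to -1.84. In myeloid progenitors, 1 of the 7 fell, beside 1.74% of all genes. It was Ctss, the cathepsin that trims the invariant chain, which read 10.04 and 10.25 in WT and 9.0 and 8.86 in KO mice (-1.22 ± 0.23, limma adjusted p = 0.0183). That call was lost without any 1 of mice 5, 6, 7 and 8, with adjusted p up to 0.179 over its alternatives. Cd80, the partner of Cd86, lay near the low end in every mouse, at 5.88 to 6.00, and Cd40 between 6.85 and 7.22. The medians of the 7 genes were 0.03 in LSK cells and -0.12 in myeloid progenitors, close to the 0.02 and 0.00 of all genes.

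Of 21 listed regulators of class II promoters and of Ciita, 17 were measured. None of the 17 passed in myeloid progenitors, where 2.64% of all genes did. In LSK cells 1 passed, Irf4, a factor of B cells and dendritic cells, beside 4.64% of all genes. It read 7.56 and 8.09 in WT and 6.45 and 6.23 in KO LSK mice, a fall by 1.48 ± 0.18 (limma adjusted p = 0.00182) that held under all 18 alternatives. The KO values lay near the low end, so this difference is best read as a minimum. Rfx5, a DNA-binding subunit of RFX at the X box, read 11.71 and 10.71 in WT and 10.03 and 10.43 in KO LSK mice (-0.98 ± 0.39, limma adjusted p = 0.263). Irf8, a factor of dendritic and monocytic cells, differed by -0.89 in LSK cells (limma adjusted p = 0.0698) and by -1.02 in myeloid progenitors (limma adjusted p = 0.0554). Averaged over the populations, Irf4 and Irf8 fell, 2 of the 17 beside 4.85% of all genes. The average for Irf8 was -0.96 ± 0.17 (limma adjusted p = 0.00595), and that call held under all 18 alternatives. Prdm1, a repressor of Ciita, differed by -0.53 in LSK cells (limma adjusted p = 0.0559), and Spi1, which acts at Ciita's myeloid promoter, by -0.16. In WT cells 6 of the 17 differed between the populations, where 13.5% of all genes did: Creb1, Spi1, Irf4 and Jak1 were higher in LSK cells, and Irf8 and Ifngr1 lower.

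Interferon-gamma switches Ciita on in most cells, and 13 of 15 listed genes that it induces were measured. In LSK cells 1 of the 13 fell, the GTPase Irgm2, beside 2.9% of all genes. In myeloid progenitors 3 fell, Irgm2 and the further interferon-induced GTPases Igtp and Gbp2, beside 1.74% of all genes. Gbp2 read 9.39 and 9.80 in WT and 8.20 and 8.25 in KO myeloid progenitors (-1.37 ± 0.25, limma adjusted p = 0.0154). The medians of the 13 were -0.50 in LSK cells and -0.76 in myeloid progenitors, against 0.02 and 0.00 over all genes. Of the 13 genes, 10 had negative differences in each population. Averaged over the populations, 6 of the 13 fell and 0 rose, beside 4.85% of all genes lower. How these 6 held under alternatives is not given here. Calls lost without 1 mouse were Irgm2 in LSK cells (mouse 1), and in myeloid progenitors Irgm2 (mouse 6 or 8), Igtp (mouse 8) and Gbp2 (mouse 6, 7 or 8), with adjusted p up to 0.117.

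Class I molecules present peptides to killer T cells and share interferon control with class II through the related coactivator Nlrc5. Of 18 listed genes 13 were measured, and none passed in either population, where 4.64% and 2.64% of all genes did, with medians of -0.19 in LSK cells and -0.24 in myeloid progenitors. Averaged over the populations the transporter gene Tap2 fell by 0.60 (limma adjusted p = 0.00947), a call lost without mouse 8 and without mice 1 and 5 together (adjusted p up to 0.0737). Tap2 came nearest in LSK cells (-0.61, limma adjusted p = 0.0689) and Nlrc5 in myeloid progenitors (-0.94, limma adjusted p = 0.089). In WT cells Tap1, Tap2 and Nlrc5 were higher in LSK cells than in myeloid progenitors, as were 6 of the 13 interferon-gamma genes and, of the processing genes, Cd86 (by 2.44 ± 0.21) and Ctss (by 0.80 ± 0.23). The shares of all genes in this comparison were 8.08% higher and 5.46% lower. Of the calls between WT populations in these lists, those of Cd86 and Irf4 held under every alternative run. Those of Irf8 and Cd274 were lost without mice 1 and 5 together, and each of the others was lost without mouse 1, with adjusted p up to 0.56 over their alternatives.

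**Figure D4:**
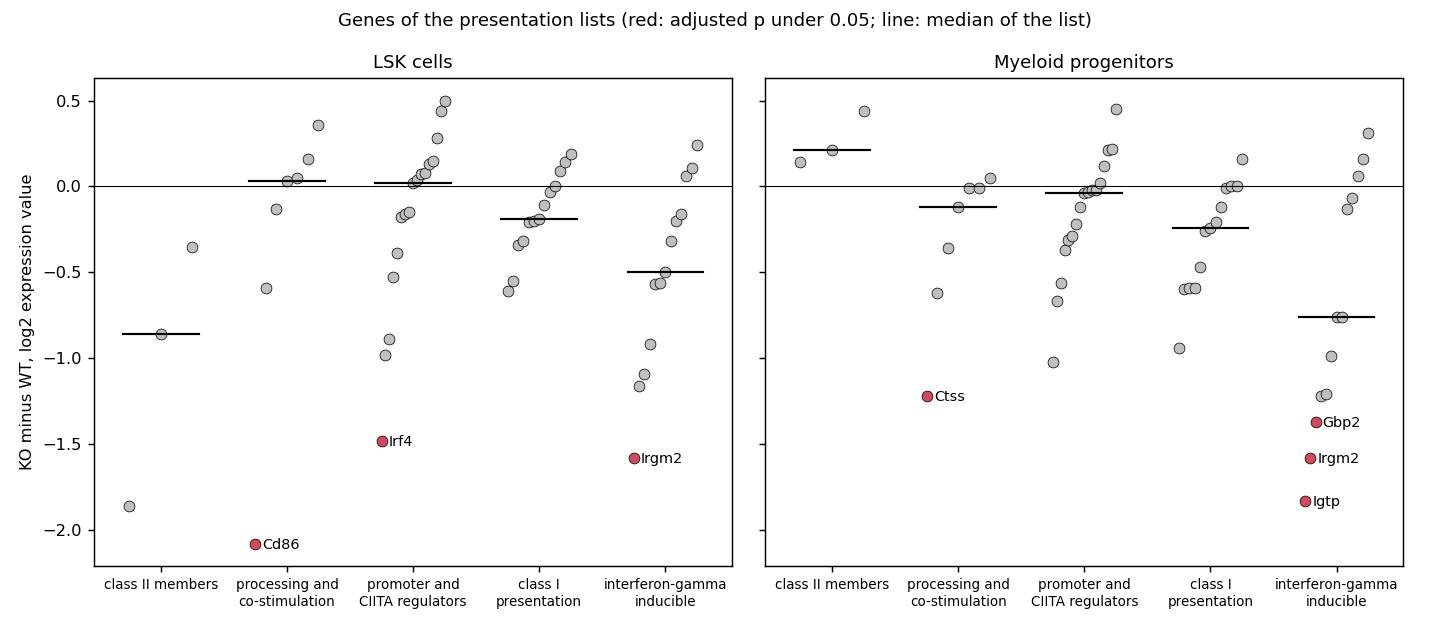
Log2 KO minus WT differences (axis) of the measured genes of each pathway list in LSK cells and in myeloid progenitors, as 1 point per gene with the list's median marked. The interferon-gamma list has medians of -0.50 and -0.76, and Cd86 at -2.08 lies far from the other processing genes in LSK cells.

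Markers of cell types that make class II moved with genotype, and their part in the class II values was not tested. Of 13 measured B cell markers, 6 fell and 1 rose in KO LSK cells and 5 fell in KO myeloid progenitors, beside 2.9% of all genes lower and 1.74% higher in LSK cells and 1.74% lower in myeloid progenitors. The calls lost under alternatives were Blnk in LSK cells (4 of 18, among them without mouse 8), Fcer2a in LSK cells (without mice 1 and 5 together) and Ms4a1 in myeloid progenitors (6 of 18, among them without any 1 of mice 5, 6, 7 and 8). The summed level of the list was 14.43 and 14.59 (log2) in WT against 12.46 and 11.83 in KO LSK mice, and 13.61 and 14.25 against 11.80 and 11.73 in myeloid progenitors. The pre-B genes Vpreb1, Igll1 and Vpreb3 were among the brightest of the list in WT LSK mouse 1 (13.06, 12.56 and 11.27, beside Cd79b at 11.40), and their KO minus WT differences were the largest falls, at -5.13 to -3.11 over both populations. Ebf1 also fell, by 2.04 ± 0.14 in LSK cells (limma adjusted p = 7.56e-05) and by 1.64 ± 0.14 in myeloid progenitors (limma adjusted p = 0.000261). Both calls held under all 18 alternatives, and its KO values, at 6.20 to 6.32, lay near the low end. Cd79a, Cd79b, Cd22 and Pax5 differed by -0.84 to 0.10 and did not pass in either population. Group means under 6.5 were found for 2 of the 13 in WT LSK cells, 7 in KO LSK cells, 5 in WT and 7 in KO myeloid progenitors. Pax5, which defines the B lineage, stayed between 6.22 and 6.45 in every mouse, near the low end.

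Of 15 dendritic cell markers, all measured, 4 fell (Spib, Xcr1, Ccr7, Ccr9) and 2 rose (Zbtb46, Fscn1) in KO LSK cells, and 2 fell (Spib, Tcf4) in KO myeloid progenitors, beside the same shares of all genes as for B cell markers. The Spib call in LSK cells held under all 18 alternatives. The others were lost in some: Xcr1 in 11 of 17, Zbtb46 in 7 of 19, Ccr9 in 4, Fscn1 in 4 and Ccr7 in 2, and in myeloid progenitors Spib in 3 of 18 and Tcf4 without mouse 6. Single mice whose removal ended a LSK call were mice 1, 2, 3 and 4 for Zbtb46, 1 and 4 for Ccr9, 1 and 3 for Fscn1 and each mouse but mouse 1 for Xcr1. Xcr1 lay near the low end in every mouse, at 5.86 to 6.18. Their summed level ran from 13.62 to 13.75 in WT LSK, 13.15 to 13.46 in KO LSK, 13.17 to 13.19 in WT and 12.98 to 13.10 in KO myeloid progenitors. Means under 6.5 numbered 2, 6, 4 and 5 of 15 in that order. Runx2, the brightest of the list in every mouse, weighs most in this sum. It read 13.18 and 12.92 in WT and 11.92 and 12.56 in KO LSK mice. The sum was higher in mouse 4 (13.46) than in mouse 2 (13.15), unlike most of the markers. In mouse 4, 12 of the 15 lay below mouse 2, by a median of 0.26 over the list. Monocyte and macrophage sums were higher in myeloid progenitors (14.51 to 15.27) than in LSK cells (13.34 to 14.02), with 1 of 12 means under 6.5 in each group. In KO LSK cells 1 of the 12 rose, Cd68 (4.8-fold), and 2 fell, Mpeg1 and Clec7a, beside 1.74% and 2.9% of all genes. In KO myeloid progenitors 4 fell, Clec7a, Mpeg1, Adgre1 and F13a1, beside 1.74% of all genes. Only Cd68 and, in myeloid progenitors, Clec7a held under all 19 alternatives. Each of the others was lost without 1 mouse: Mpeg1 in LSK cells (mouse 2 or 3) and in myeloid progenitors (mouse 5, 6 or 8), Clec7a in LSK cells (mouse 1, 2, 3, 5 or 6), Adgre1 (mouse 5 or 8) and F13a1 (any of mice 5 to 8). T and NK cell sums were 11.37 and 11.48 in WT LSK, 12.15 and 12.14 in KO LSK and at least 12.47 in all myeloid progenitors, with 3, 5, 4 and 4 of 10 means under 6.5. This sum follows Nkg7, which rose in KO LSK cells (10.71 and 10.70 in WT, 11.83 and 11.85 in KO mice), a call lost without mouse 1 or 3. However, 7 of the 10 had negative differences there and Cd3d and Gzma fell. That made 1 of the 10 higher and 2 lower, beside 1.74% and 2.9% of all genes. The calls of Cd3d and Gzma were lost in 8 and 10 of 18 alternatives, among them leaving out any 1 of mice 3 to 8.

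The sorted populations matched their labels by marker. Between WT populations 7 of 10 measured LSK markers were higher and none lower in LSK cells, and 8 of 12 myeloid progenitor markers were lower and none higher, beside 8.08% of all genes higher and 5.46% lower. Ly6a, which encodes the sorting marker, was not analysed here. By genotype, none of the 10 LSK markers passed in LSK cells, where 4.64% of all genes did. In KO myeloid progenitors 1 of the 10 fell, Cd34 (-1.18 ± 0.18, limma adjusted p = 0.00647), beside 1.74% of all genes. That call was lost without mouse 8. In KO LSK cells 3 of the 12 myeloid progenitor markers rose, Elane, Cebpe and Ctsg, beside 1.74% of all genes. These calls were lost in 8, 9 and 12 of 19 alternatives, among them leaving out mouse 1 or mouse 4. All 12 markers were higher in mouse 4 than in mouse 2, by a median of 0.50, and 11 of the 12 were higher in mouse 3 than in mouse 1, by a median of 0.75. Mouse 4 had the lowest and mouse 3 the highest H2-Aa of all mice, and the part of these markers in the class II values was not tested. Bap1 itself was not lower in KO mice (0.40 ± 0.18 in LSK cells, limma adjusted p = 0.321, and 0.20 in myeloid progenitors), and the sources used here do not place its probe relative to the deletion, so WT and KO are the labels' genotypes. Kdm5d, on the Y chromosome, gave a signal in mice 1 and 5 (7.88 and 8.15), both WT, and not in the other 6. Without them H2-Aa differed by -2.05 in LSK cells (limma adjusted p = 0.553).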

How the data were processed

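RNA of sorted cells was amplified with amino-allyl UTP and labelled with Cy5, per the labels' protocols. The deposited values are log2 intensities processed by the authors, with limma named without a version in the submitters' processing notes. Sorted values differed between arrays by 0.0451 or less at every rank, as quantile normalization would leave them. The sources used here do not give the background correction or the array's genome build. Precision is limited by the number of mice, 2 per group.

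The 3 arrays of a mouse were averaged, and the 8 means fitted over 4 groups with limma 3.58.1 in R 4.3.3 (trend and robust options, 4 residual degrees of freedom). P-values are two-sided limma values, adjusted by Benjamini-Hochberg over 22439 probes. Gene names came from the platform annotation, updated through RefSeq (GRCm38.p6). On simulated data for the LSK comparison over 22439 probes, 72.8% of changes of 1 and 99.2% of changes of 2 (log2) were recovered. Of the calls 9.84% were false, a share above that set by the threshold of 0.05. The simulation gave each probe 1 spread for all groups and placed the changes on random probes. H2-Aa had an SD of 1.24 in KO LSK and 0.27 in WT LSK mice, so these shares do not carry over to it.

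The class II genes and gene lists were chosen with earlier results of these data known. Named were Bap1, the class II genes, list members past the threshold and otherwise up to 4 with the largest differences, and the 5 genes with the highest r. Not every member past the threshold is named, since some marker lists and comparisons are given by count. Cd80, Cd40, Pax5, Cd79a, Cd79b, Cd22, Runx2 and the level of 6.5 were chosen after values were seen. Alternatives were other blocks, filters, centring, probe averaging, a Kdm5d covariate and leaving out mice.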

Additional observations from a re-analysis of the deposited data

How the results depend on the processing

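The count of class II genes past the threshold was 0 of 3 in every comparison. With all arrays fitted and the mouse as a random block, it was 2 in LSK cells, 1 for the average, 1 for the difference between populations and 2 between WT populations, where that fit called 15.1%, 18%, 2.56% and 26.4% of all genes in that order. Adding the array number as a replicate block gave 2, 1, 1 and 2 again, although the numbers do not pair arrays: same-numbered arrays had deviations correlated at -0.25 to 0.277, median 0.00567. H2-Aa in LSK cells then had a limma adjusted p of 0.000159, or 0.000393 with the replicate block. Both fits use a single correlation of 0.442 between arrays of a mouse for all probes. Fitting only the groups compared gave 1 between WT populations, where that fit called 13.2% of all genes. Counting the probe annotated H2AB1 as a class II gene, an alternative chosen after seeing the data, gave 1 in LSK cells and 1 for the average. Leaving out 1 mouse at a time gave 0 to 1 in LSK cells, for the average, for the difference and between WT populations, the 1 each time being reached without mouse 2, and between WT populations also without mouse 4; both leave a lone KO LSK mouse, assumed to vary like the other groups.

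Of 330 values of single class II genes, 302 kept direction and side of the threshold, 18 newly passed and 10 turned sign; the cause was not tested. Ciita's average turned to 0.02 with the Kdm5d covariate and 0.01 without the mice with a Kdm5d signal. Over single mice left out, values ran from -0.15 to 0.01 for Ciita's average, -0.78 to 0.06 for Cd74's average, -0.42 to 0.70 for Cd74 in myeloid progenitors, and -1.27 to 0.49 for H2-Aa and -1.27 to 0.40 for Cd74 between KO populations. Averaging all probes of Cd74 gave -0.42 in LSK cells. The filter at the 50th percentile removed Ciita.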
